A study of Gallus gallus with 106 samples.

Results

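Primary satellite cells from the breast muscle of wild-type broiler chickens were compared after 24 h and after 12 h of myogenic differentiation at 1% O2 (hypoxia), with 6 biological libraries at each time, 12 of the 53 in the study. The libraries were chosen by their labelled oxygen level and hour. All cells had grown in Ham's F10 with fetal bovine serum, horse serum, chicken embryo extract and basic fibroblast growth factor, and were then moved to DMEM/F12 with less serum to induce differentiation. The hypoxic cells went into a chamber with 1% O2, 5% CO2 and 94% N2 at that change of medium. The assay was targeted RNA-seq, in which primers for a fixed panel of transcripts amplify cDNA before sequencing. The same 12 to 24 h interval at 20% O2 (normoxia), with 6 libraries at each time, is set beside it, and the levels at 0 h (5 libraries), 36 h and 48 h serve for the course. Whether replicate libraries came from separate birds or cultures is not in the labels, so the p-values here speak to the spread among these libraries alone, and it may be technical.

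Satellite cells are the stem cells of skeletal muscle. Once activated they divide as myoblasts under the transcription factors MYF5 and MYOD1, and they then leave the cell cycle, express MYOG, fuse and build sarcomeres, the contractile units of the fibre. Myostatin, bone morphogenetic proteins, fibroblast growth factors and Wnt ligands are secreted signals that push cells toward or away from this programme. Low oxygen stabilises the HIF transcription factors, which turn on genes for glucose uptake, glycolysis and vessel growth.

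Total counts per library ran from 204271 to 1325157 at 24 h (median 729303) and from 232043 to 1252578 at 12 h (median 809230). Of 569 panel genes, 453 had enough counts to be tested and 116 did not. Levels are normalised read counts scaled to a common library size (CPM). Since primers differ in yield, CPM of different genes are not compared with each other. The labelled cell type was checked on its markers, with raw counts of 1539 to 12169 for PAX7, 1078 to 11811 for MYF5 and 979 to 5752 for desmin at 24 h, and of 1773 to 12317, 1424 to 10662 and 991 to 5139 at 12 h. The endothelial gene PECAM1 had at most 3 counts at 24 h and at most 5 at 12 h, and the leukocyte gene PTPRC had at most 1 and at most 2. Other endothelial-type genes were detected. VWF had 29 to 185 raw counts at 24 h and 71 to 307 at 12 h. ENG had 18 to 347 and 47 to 303, and CDH5 had 3 to 26 and 11 to 20. Fibroblast-type genes were detected, with a summed level of 19157 to 23371 CPM over 7 genes at 24 h and 18319 to 20645 CPM at 12 h. So were adipocyte-type genes, with 15087 to 19786 CPM over 6 genes at 24 h and 15096 to 17044 CPM at 12 h. These sums were scaled by library totals alone, and as primers differ in yield they do not give the share of a cell type. Of the adipocyte-type genes ADIPOQ had 720 to 4718 raw counts at 24 h and 749 to 4702 at 12 h. PLIN1 had only 3 to 27 and 8 to 38, and CFD had too few counts to be tested. Of the tested fibroblast, endothelial, adipocyte, smooth muscle and immune markers, 0 of 19 passed the test in hypoxia, against 10.2% of all tested genes. CD14, the tested immune marker, reached its highest raw count in replicate 1 at both times, 212 at 24 h and 258 at 12 h.

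One feature of the libraries bears on these results. Across the study 17 of 53 libraries stood apart by high levels of MC5R, SSTR2, HRH2, THRSP, FBP2 and IRS1 together. Replicate 1 was such a library at both 24 h and 12 h in hypoxia, as were 1 of 6 normoxia libraries at 24 h and 4 of 6 at 12 h. Replicate 1 at 0 h was another. It had counts above 0 in all 569 genes, against 481 to 515 genes in the other 0 h libraries. Among the 35 genes that fell in hypoxia, replicate 1 was the highest library at 24 h in 24 and the lowest library at 12 h in 27. Among the 11 that rose, it was the lowest at 24 h in 2 and the highest at 12 h in 9. For the change in hypoxia, values without these libraries are given for the 5 genes whose calls were then lost.

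From 12 to 24 h in hypoxia 46 of 453 genes passed the test (10.2%), at an adjusted p under 0.05 in edgeR's quasi-likelihood test. Of these, 11 were higher at 24 h (2.43% of tested genes) and 35 were lower (7.73%). The genes that rose included the lipocalins PTGDS and EXFABP, the cytokines IL15 and IL6, the Z-disc gene LDB3, the myosin MYH1D and the calcium buffer PVALB, and the highest fitted rise was that of COX3, on few counts. The genes that fell included ELOVL3, FGFR3, BMP7, DIO2, ZDHHC14 and DHCR7, each by more than 2-fold, as well as 2 Wnt ligands, 7 mitochondrial carriers and enzymes of fat oxidation. The changes were mostly moderate: 28 of the 46 exceeded 1.5-fold and 10 exceeded 2-fold. In 42 of the 46 the 6 libraries at 24 h were all above, or all below, the mean at 12 h. The 46 were picked by a test of this same difference, so such one-sidedness is largely built into the choice. It describes the libraries, here and for single genes below, and adds no separate support.

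**Figure D1:**
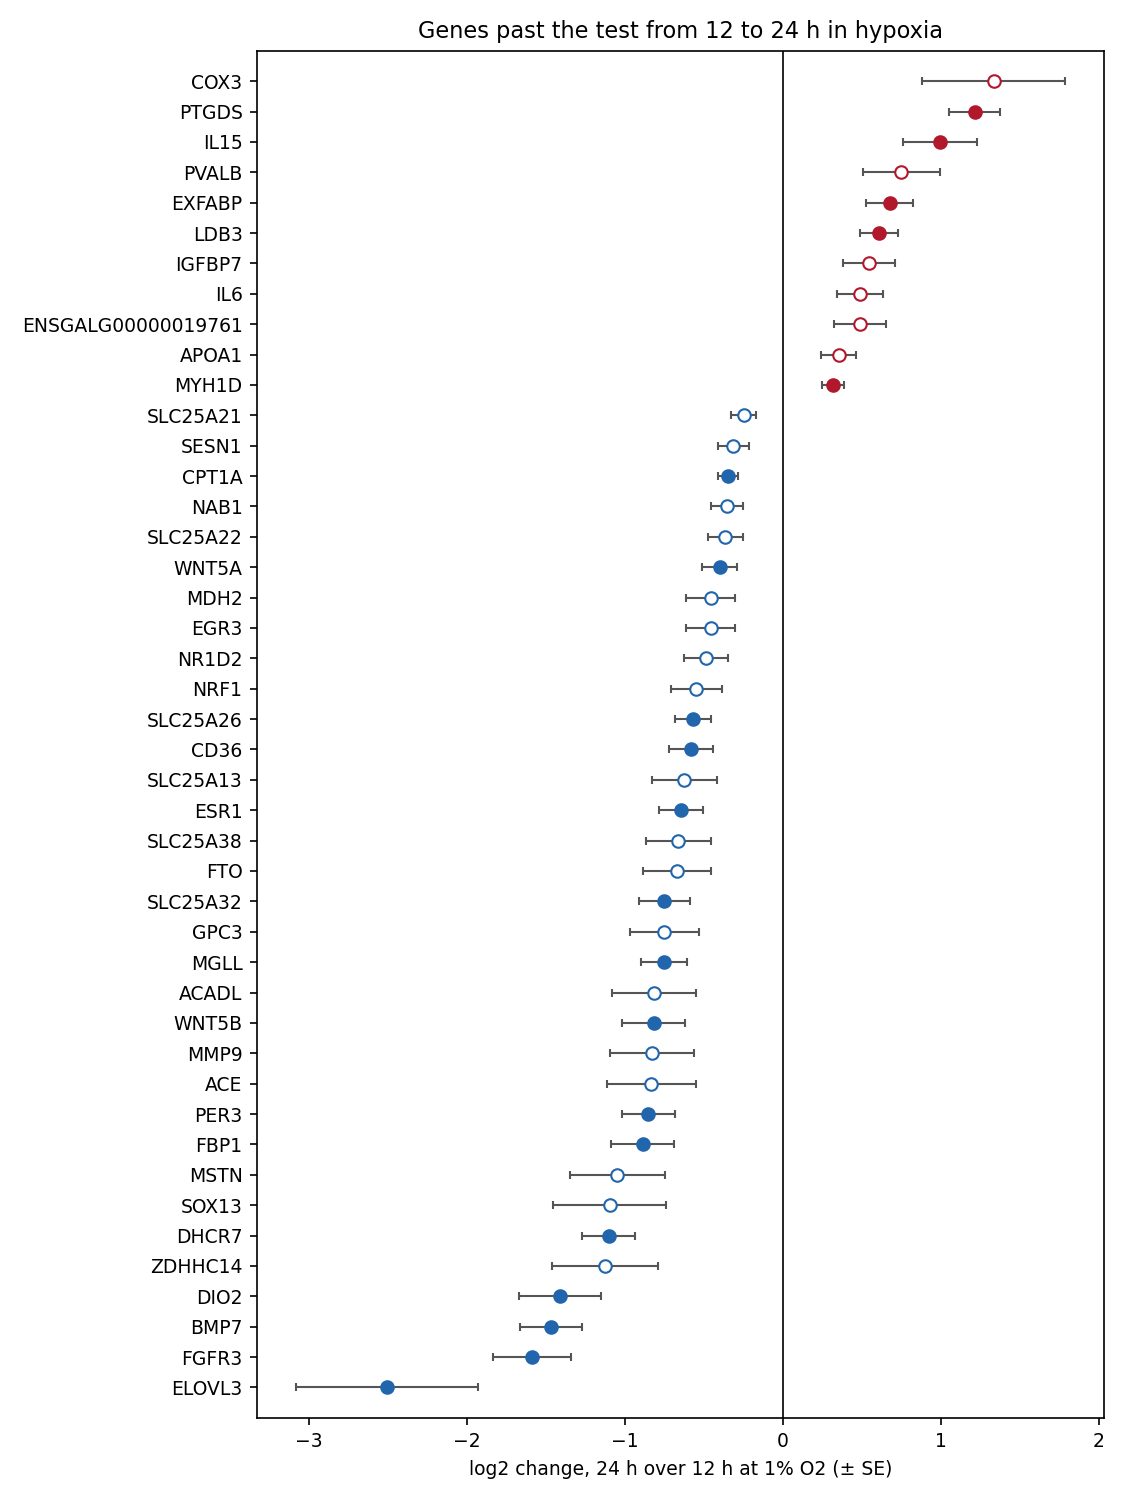
Log2 change (24 h over 12 h at 1% O2) with its SE for 44 of the 46 genes that passed the test, red for the 11 that were higher and blue for 33 that were lower at 24 h. Filled points mark the 20 genes shown that passed in every fit leaving out a single library of the 12, and open points the 24 that did not. The range runs from 1.34 for COX3 at the top to -2.50 for ELOVL3 at the bottom.

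The groups did not overlap in 18 genes, all of them called, out of 453 tested (3.97%), 4 higher and 14 lower at 24 h. Without the libraries that stand apart 63 genes passed, 41 of the 46 among them, and the 5 that no longer did were MSTN, MMP9, MDH2, SLC25A21 and ENSGALG00000019761. DESeq2 called 60 genes, 24 higher and 36 lower, against 11 higher and 35 lower in edgeR. Scaling to 7 reference genes kept 26 of the 46 calls and all 46 directions. Scaling by total counts lost the calls of ACE, COX3 and ENSGALG00000019761, and DESeq2 those of COX3 and SLC25A21. Calls lost with the reference genes included those of ACE, APOA1, COX3, CPT1A, EGR3, ENSGALG00000019761, FTO, IGFBP7, IL6, MMP9, MSTN, MYH1D, NRF1, PVALB, SLC25A13, SLC25A21, SLC25A22, SLC25A38 and SOX13. Each of the 46 genes kept its direction under every alternative that gave a value for it. In these bulk samples fewer cells of a type and less RNA per cell cannot be told apart.

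Of 12 tested contractile and structural genes 3 passed the test, all higher at 24 h (25.0%, against 10.2% called and 2.43% called higher over all tested genes), and 11 of 12 had a positive log2 change. The median of the list was 0.22 on the log2 scale, against 0.03 over all tested genes, of which 254 of 453 were positive. Of the markers of other cells, those of smooth muscle summed to 9485 to 13004 CPM at 24 h and 10607 to 11329 CPM at 12 h. These sums were scaled by library totals alone, and the part of such cells in the contractile changes was not tested.

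LDB3, which anchors thin filaments at the Z-disc of the sarcomere, had a lowest, median and highest level of 1972, 2420 and 3232 CPM at 24 h, against 1232, 1609 and 2204 CPM at 12 h. Every library at 24 h was above the 12 h mean, and the groups overlapped through replicate 1 at 12 h, which was the highest there. LDB3 rose 1.52-fold (log2 change 0.61, SE 0.12, adjusted p = 0.000332). It lies on chromosome 6 at 3104861 to 3175701 in galGal6, on the plus strand, with 9 exons in the panel transcript.

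MYH1D, a fast skeletal myosin heavy chain that supplies the motor of the thick filament, had 4132, 4567 and 4800 CPM at 24 h, against 3266, 3583 and 4166 CPM at 12 h. All 6 libraries at 24 h were above the 12 h mean, and a single library at 12 h, replicate 2, reached into the 24 h range. MYH1D rose 1.24-fold (log2 change 0.32, SE 0.07, adjusted p = 0.00115), with an adjusted p of 0.098 when scaled to the reference genes. The related myosin gene MYH1E had 2697, 2977 and 3169 CPM at 24 h, against 2554, 2776 and 3132 CPM at 12 h, and did not pass (log2 change 0.08, SE 0.12, adjusted p = 0.757). Chicken fast myosin genes are close copies on chromosome 18 (MYH1D at 376311 to 398842, MYH1E at 564255 to 586932), so how reads were assigned among them is uncertain.

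PVALB, the calcium buffer of fast fibres, had 96.7, 129 and 304 CPM at 24 h, against 67.2, 84.9 and 127 CPM at 12 h. The highest library at 24 h, replicate 2, stood far above the rest, and every 24 h library was above the 12 h mean. PVALB rose 1.68-fold (log2 change 0.75, SE 0.24, adjusted p = 0.0389). Its call was lost without any of replicates 2 to 6 at 12 h and without replicate 2 or 6 at 24 h, with an adjusted p of up to 0.227. TNNT2, cardiac troponin T, had 0 to 13 raw counts at 24 h and 0 to 7 at 12 h and did not pass (log2 change 0.78, SE 0.71, adjusted p = 0.547).

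The myogenic transcription factors did not pass the test over these 12 h. Of 7 tested myogenic regulatory factors and MEF2 genes 0 passed, against 10.2% of all tested genes, and the median log2 change was 0.05. MYOG, which marks commitment to differentiation, had 4007, 5176 and 6501 CPM at 24 h, against 4377, 5044 and 5581 CPM at 12 h (log2 change 0.03, SE 0.09, adjusted p = 0.907). MYOD1, the myoblast determination factor, had 3201, 4215 and 5628 CPM at 24 h, against 3799, 4016 and 4688 CPM at 12 h (log2 change 0.05, SE 0.09, adjusted p = 0.795). In both genes the 24 h libraries spread on either side of the 12 h range.

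PAX7, the factor of the quiescent and proliferating satellite cell, had 5929, 9327 and 13236 CPM at 24 h, against 6800, 8998 and 11033 CPM at 12 h (log2 change 0.05, SE 0.15, adjusted p = 0.918). MYF5 had a log2 change of 0.02 (SE 0.20, adjusted p = 0.979), MEF2A of 0.11 (SE 0.27, adjusted p = 0.882) and MEF2C of 0.29 (SE 0.27, adjusted p = 0.547). MYF6, the factor of later fibre maturation, varied most, with 70.2, 210 and 586 CPM at 24 h, against 41.1, 124 and 254 CPM at 12 h (log2 change 0.89, SE 0.65, adjusted p = 0.44). Its spread within a group was wider than the difference between the times.

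Of 7 tested identity and surface genes of satellite cells 1 passed, and it was lower (14.3%, against 10.2% called and 7.73% called lower over all tested genes). GPC3, a heparan sulphate proteoglycan that binds growth factors, had 61.6, 89.6 and 135 CPM at 24 h, against 122, 155 and 182 CPM at 12 h. All 6 libraries at 24 h were below the 12 h mean, and replicate 5 at 24 h overlapped the lowest 12 h library. GPC3 fell 1.68-fold (log2 change -0.75, SE 0.22, adjusted p = 0.022), a call lost without replicate 3 at 12 h and without replicate 2 or 4 at 24 h (adjusted p up to 0.0742). PAX3, a relative of PAX7, had a log2 change of -0.04 (SE 0.23, adjusted p = 0.96).

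**Figure D2:**
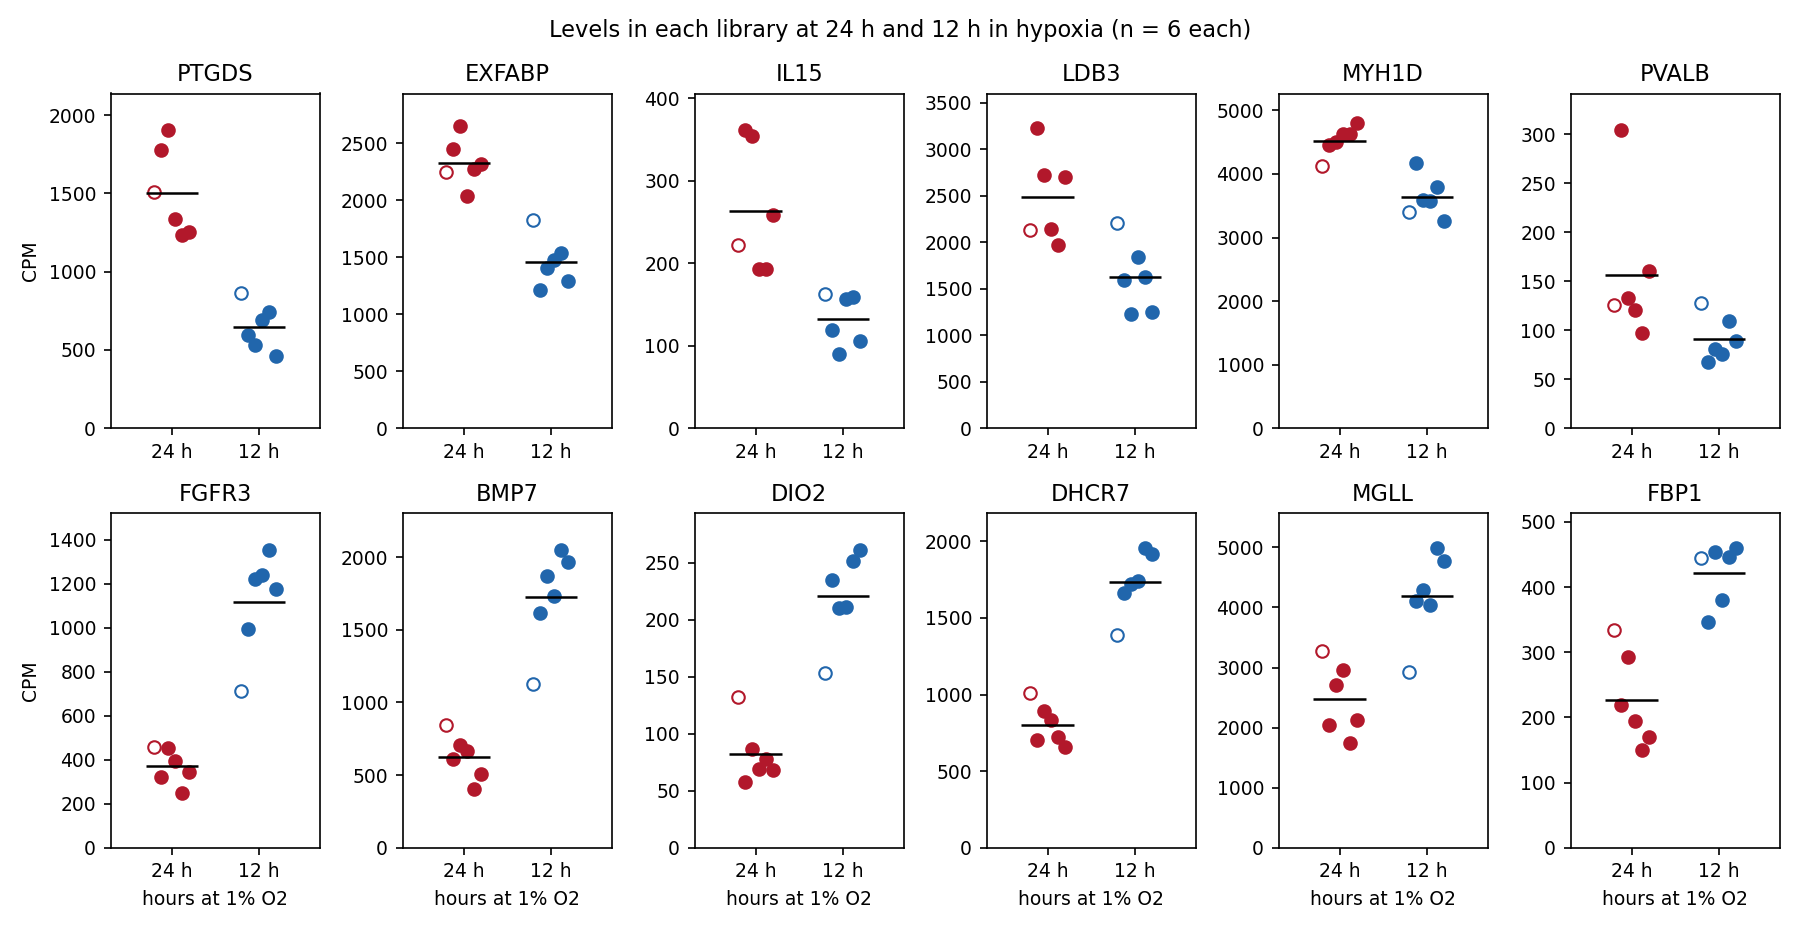
CPM of 12 genes in each library, with 24 h (red) left of 12 h (blue) at 1% O2, 6 libraries each, and a black line at the group mean. Open circles mark replicate 1, which stands apart at both times. PTGDS, EXFABP and IL15 do not overlap between the times, nor do FGFR3, BMP7, DIO2, DHCR7 and FBP1.

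Of 13 tested TGF-beta and BMP genes 2 passed, both lower (15.4%, against 10.2% called and 7.73% called lower over all tested genes), and the median of the list was -0.05 on the log2 scale. BMP7, a secreted bone morphogenetic protein, had 405, 637 and 847 CPM at 24 h, against 1125, 1800 and 2050 CPM at 12 h. No library at 24 h reached the lowest at 12 h. BMP7 fell 2.76-fold (log2 change -1.46, SE 0.20, adjusted p = 2.89e-07), and it lies on chromosome 20 at 11682314 to 11723878.

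Myostatin, the secreted inhibitor of muscle growth, is named GDF8 in the deposited table and MSTN here. It had 17.2, 35.4 and 92.5 CPM at 24 h, against 50.8, 87.5 and 127 CPM at 12 h, from 5 to 66 raw counts at 24 h and 30 to 106 at 12 h. Replicate 2 at 24 h lay inside the 12 h range and above its mean. MSTN fell 2.07-fold (log2 change -1.05, SE 0.30, adjusted p = 0.0207), with an adjusted p of 0.106 without the libraries that stand apart and of up to 0.0702 without replicate 5 or 6 at 24 h. Its level averaged 1604 ± 147 CPM at 0 h (SD, n = 5, with replicate 1, which stands apart) and 86.9 ± 26.9 CPM at 12 h (SD, n = 6). Of 3 tested inhibitors of myogenic factors MSTN was the only 1 to pass (33.3%, against 10.2% over all tested genes).

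Follistatin, FST, which binds and blocks myostatin, had 5259, 5735 and 7158 CPM at 24 h, against 5783, 6142 and 6766 CPM at 12 h (log2 change -0.07, SE 0.08, adjusted p = 0.683). The ranges of the 2 times lay over each other.

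FGFR3, a receptor tyrosine kinase for fibroblast growth factors, was the only 1 of 9 tested growth factor and receptor genes of its list to pass. That share is 11.1%, against 10.2% over all tested genes. FGFR3 had 249, 371 and 457 CPM at 24 h, against 713, 1200 and 1353 CPM at 12 h, with no overlap. The fall was 3.00-fold (log2 change -1.59, SE 0.25, adjusted p = 7.17e-06). The lowest 12 h library and the highest 24 h library were both replicate 1.

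Of 8 tested Wnt genes 2 passed, both lower (25.0%, against the same 10.2% and 7.73%), and the median log2 change was -0.36, against 0.03 over all tested genes. WNT5B and WNT5A are ligands that mostly act without beta-catenin. WNT5B had 755, 861 and 1346 CPM at 24 h, against 1161, 1677 and 1875 CPM at 12 h, and the only overlap was between the replicate 1 libraries (log2 change -0.82, SE 0.20, adjusted p = 0.00375). WNT5A had 1310, 1437 and 1777 CPM at 24 h, against 1872, 1928 and 2224 CPM at 12 h, without overlap (log2 change -0.40, SE 0.11, adjusted p = 0.0118). WNT4 had the largest difference of the list on few counts, 0 to 5 at 24 h and 0 to 6 at 12 h, and did not pass (log2 change -0.99, SE 0.67, adjusted p = 0.402).

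In the IGF and insulin list 1 of 11 tested genes passed (9.09%, against 10.2% over all tested genes). IGFBP7, a secreted protein that binds insulin-like growth factors, had 1133, 1535 and 2277 CPM at 24 h, against 827, 1027 and 1535 CPM at 12 h, with every 24 h library above the 12 h mean. It rose 1.46-fold (log2 change 0.55, SE 0.17, adjusted p = 0.0285), a call lost without replicate 2, 3, 5 or 6 at 12 h and replicate 2 or 3 at 24 h (adjusted p up to 0.136). IGF1 had a log2 change of -0.40 (SE 0.26, adjusted p = 0.384) and IGF2 of 0.09 (SE 0.26, adjusted p = 0.906). IRS1, which belongs to the genes that set some libraries apart, had 0 to 83 raw counts at 24 h and 1 to 161 at 12 h, with replicate 1 highest at both times (adjusted p = 0.674).

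Cytokines and lipocalins held 4 of the 11 genes that rose. Of 14 tested genes in that list 4 passed, all higher (28.6%, against 10.2% called and 2.43% called higher over all tested genes), and the median log2 change was 0.12. Among the 4, PTGDS and EXFABP are lipocalins placed in a list of cytokines, chemokines and their receptors. Its members were chosen with earlier results of these data known, so part of the excess may come from that choice. PTGDS, the lipocalin-type enzyme that makes prostaglandin D, had 1235, 1422 and 1908 CPM at 24 h, against 463, 644 and 865 CPM at 12 h. The groups were well apart. PTGDS rose 2.32-fold (log2 change 1.21, SE 0.16, adjusted p = 2.89e-07).

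EXFABP, a chicken lipocalin that binds fatty acids outside the cell, had 2037, 2299 and 2647 CPM at 24 h, against 1216, 1439 and 1824 CPM at 12 h, again without overlap. It rose 1.60-fold (log2 change 0.68, SE 0.15, adjusted p = 0.00124). The 2 lipocalin genes are neighbours on the minus strand of chromosome 17 in galGal6, EXFABP at 865358 to 868425 and PTGDS at 872551 to 874786, with 4125 bases between them. No other pair of the 46 genes lay within 20000 bases of each other.

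IL15, a cytokine that muscle itself secretes, had 193, 240 and 362 CPM at 24 h, against 89.8, 138 and 163 CPM at 12 h, without overlap. The rise was 2.00-fold (log2 change 1.00, SE 0.23, adjusted p = 0.00242). IL6, another cytokine made by muscle, had 2453, 2929 and 3709 CPM at 24 h, against 1778, 2081 and 2646 CPM at 12 h. All 6 IL6 values at 24 h were above the 12 h mean, with overlap through replicate 1 at 12 h. IL6 rose 1.40-fold (log2 change 0.49, SE 0.14, adjusted p = 0.0228), a call lost without replicate 2, 3 or 6 at 12 h and replicate 2 or 3 at 24 h (adjusted p up to 0.065). The chemokine CCL5 had 1 to 12 raw counts at 24 h and 0 to 5 at 12 h and did not pass (adjusted p = 0.292).

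Of 21 tested matrix and protease genes 1 passed (4.76%, against 10.2% over all tested genes). MMP9, a gelatinase, had 182, 406 and 562 CPM at 24 h, against 497, 675 and 832 CPM at 12 h, and all 6 libraries at 24 h were below the 12 h mean. It fell 1.77-fold (log2 change -0.83, SE 0.27, adjusted p = 0.0389). That call was lost without any of replicates 2 to 6 at 12 h and without replicate 5 or 6 at 24 h (adjusted p up to 0.11), and the adjusted p was 0.0515 without the libraries that stand apart. The fibroblast marker DPT had a log2 change of 0.37 (SE 0.16, adjusted p = 0.135) and the matrix gene COCH of 0.45 (SE 0.26, adjusted p = 0.308).

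Lipid genes passed in both directions. Of 37 tested genes for lipid synthesis, uptake and transport 4 passed, 1 higher and 3 lower, a share of 10.8% against 10.2% over all tested genes. ELOVL3, an elongase that lengthens saturated fatty acids, had 0 to 7 raw counts at 24 h and 7 to 31 at 12 h, or at most 5.34 CPM at 24 h against at least 9.24 CPM at 12 h. The fitted fall was 5.67-fold (log2 change -2.50, SE 0.58, adjusted p = 0.00197), and on counts this low its size depends on the fit.

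MGLL, which frees fatty acids from monoglycerides, had 1739, 2420 and 3267 CPM at 24 h, against 2933, 4199 and 4994 CPM at 12 h, and fell 1.68-fold (log2 change -0.75, SE 0.14, adjusted p = 0.0002). CD36, the fatty acid uptake receptor, had 808, 981 and 1203 CPM at 24 h, against 1219, 1525 and 1794 CPM at 12 h, without overlap (log2 change -0.58, SE 0.14, adjusted p = 0.0027). In MGLL the overlap came from replicate 1 at 12 h, which lay below 2 of the 24 h libraries.

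APOA1, the main apolipoprotein of high-density lipoprotein, had 1300, 1379 and 1575 CPM at 24 h, against 933, 1111 and 1206 CPM at 12 h, without overlap. It rose 1.28-fold (log2 change 0.35, SE 0.11, adjusted p = 0.0377), a call lost without any of replicates 3 to 6 at 12 h and replicates 2, 3, 5 or 6 at 24 h (adjusted p up to 0.118). PLIN1, a lipid droplet protein of adipocytes, had 3 to 27 raw counts at 24 h and 8 to 38 at 12 h, and did not pass (log2 change -1.13, SE 0.49, adjusted p = 0.146).

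In cholesterol synthesis, a list of 7 tested genes drawn up after the values had been seen, 2 passed, both lower at 24 h (28.6%, against 10.2% called and 7.73% called lower over all tested genes). DHCR7, a reductase of the last steps of that pathway, had 657, 778 and 1009 CPM at 24 h, against 1385, 1733 and 1957 CPM at 12 h, and fell 2.15-fold (log2 change -1.10, SE 0.17, adjusted p = 3.52e-06). The groups did not overlap.

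Of 17 tested genes in the list of mitochondria and oxidative metabolism 3 passed, all lower (17.6%, against 10.2% called and 7.73% called lower over all tested genes), and the list's median log2 change was 0.01. CPT1A, which admits long-chain fatty acids to the mitochondrion, had 4373, 5185 and 5740 CPM at 24 h, against 5979, 6486 and 7272 CPM at 12 h, without overlap (log2 change -0.35, SE 0.06, adjusted p = 9.27e-05, or 0.089 when scaled to the reference genes). ACADL, an acyl-CoA dehydrogenase of the same pathway, had 58.4, 132 and 218 CPM at 24 h, against 136, 250 and 268 CPM at 12 h (log2 change -0.81, SE 0.26, adjusted p = 0.0389). The ACADL call was lost without any single library other than replicate 1 at either time and replicate 3 at 24 h (adjusted p up to 0.124).

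NRF1, nuclear respiratory factor 1, which drives genes of the respiratory chain, had 1276, 1677 and 2330 CPM at 24 h, against 1829, 2671 and 2911 CPM at 12 h (log2 change -0.55, SE 0.16, adjusted p = 0.0228). All 6 NRF1 values at 24 h were below the 12 h mean, and the call was lost without replicate 3 or 5 at 12 h and replicate 2, 5 or 6 at 24 h (adjusted p up to 0.0719). MDH2, the malate dehydrogenase of the citric acid cycle, had 301, 364 and 486 CPM at 24 h, against 405, 505 and 606 CPM at 12 h (log2 change -0.46, SE 0.15, adjusted p = 0.0485). The adjusted p of MDH2 was 0.169 without the libraries that stand apart, and its call was lost without any single library other than replicate 4 at 12 h and replicate 5 at 24 h (up to 0.136).

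COX3, the mitochondrially encoded subunit of cytochrome c oxidase, which is outside that list, passed on the higher side and had the highest fitted change, on 6 to 19 raw counts at 24 h and 0 to 20 at 12 h. The fit gave 2.52-fold (log2 change 1.34, SE 0.45, adjusted p = 0.0485). All 6 libraries at 24 h were above the 12 h mean, but replicate 1 at 12 h lay inside the 24 h range. The call was lost without any single library other than replicate 1 at either time and replicate 3 at 24 h (adjusted p up to 0.139), and in DESeq2 (adjusted p = 0.0525).

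The SLC25 family, carriers that move metabolites across the inner mitochondrial membrane, held 7 of the 35 genes that fell. Of the 24 tested members of the family in the panel, a list drawn up after the values had been seen, 7 passed (29.2%, against 10.2% over all tested genes), all of them lower. The median log2 change of the family was -0.16, and 5 of 24 were positive. SLC25A32, the folate carrier, had 482, 559 and 716 CPM at 24 h, against 681, 985 and 1107 CPM at 12 h (log2 change -0.75, SE 0.16, adjusted p = 0.00115). SLC25A26, which brings in S-adenosylmethionine, had 1048, 1183 and 1469 CPM at 24 h, against 1671, 1788 and 2086 CPM at 12 h, without overlap (log2 change -0.57, SE 0.11, adjusted p = 0.000332).

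Other carriers lost their calls in some fits that left out a single library. SLC25A38, the glycine carrier (log2 change -0.66, SE 0.21, adjusted p = 0.0337), and SLC25A22, a glutamate carrier (log2 change -0.36, SE 0.11, adjusted p = 0.0276), lost theirs without replicate 3, 5 or 6 at 12 h and replicate 2, 5 or 6 at 24 h, with adjusted p of up to 0.11 and 0.0982. SLC25A13, an aspartate and glutamate carrier (log2 change -0.62, SE 0.20, adjusted p = 0.0408), lost its call without any library but replicates 1 and 4 at 12 h and replicate 1 at 24 h (up to 0.133).

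SLC25A21, a carrier of oxodicarboxylates, had 2418, 2617 and 2799 CPM at 24 h, against 2874, 3106 and 3334 CPM at 12 h, without overlap. Its fall was small (log2 change -0.25, SE 0.08, adjusted p = 0.0389), and the adjusted p was 0.139 without the libraries that stand apart and 0.056 in DESeq2. The call was also lost without replicate 1, 2, 3, 5 or 6 at 12 h and replicate 2, 4 or 5 at 24 h (up to 0.108).

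Of 13 tested genes of glycolysis and glucose handling 1 passed (7.69%, against 10.2% over all tested genes). FBP1, a fructose bisphosphatase that runs glycolysis in reverse, had 150, 207 and 335 CPM at 24 h, against 346, 445 and 460 CPM at 12 h, without overlap, and fell 1.85-fold (log2 change -0.89, SE 0.20, adjusted p = 0.00134). The genes of glucose uptake and breakdown did not pass: log2 changes were -0.08 for the transporter SLC2A1 (SE 0.10, adjusted p = 0.697), -0.21 for the hexokinase HK2 (SE 0.26, adjusted p = 0.684), 0.06 for the enolase ENO1 (SE 0.29, adjusted p = 0.95) and 0.05 for PDK1, which shuts pyruvate out of the citric acid cycle (SE 0.07, adjusted p = 0.709). The fall of FBP1 was the largest in that list.

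Genes of the HIF pathway did not pass over this interval either, 0 of 7 tested, against 10.2% of all tested genes. HIF1A, the oxygen-regulated subunit, whose control is mainly at the protein level, had 3370, 4051 and 4610 CPM at 24 h, against 3657, 3811 and 4267 CPM at 12 h (log2 change 0.06, SE 0.07, adjusted p = 0.647). VEGFA, the vessel growth factor that HIF induces, had 4292, 4480 and 5038 CPM at 24 h, against 4225, 4331 and 4708 CPM at 12 h (log2 change 0.07, SE 0.05, adjusted p = 0.456). The 7 log2 changes ran from -0.08 for SLC2A1 to 0.09 for BHLHE40.

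Proliferation genes did not pass, 0 of 5 tested against 10.2% of all tested genes, with a median log2 change of 0.01. PCNA, the clamp of DNA polymerase, had a log2 change of 0.06 (SE 0.06, adjusted p = 0.552), RRM2 of 0.01 (SE 0.05, adjusted p = 0.96), CCND1 of 0.09 (SE 0.05, adjusted p = 0.28) and E2F1 of -0.22 (SE 0.28, adjusted p = 0.697). CDKN1A, the inhibitor that holds differentiating myoblasts out of the cycle, had a log2 change of 0.15 (SE 0.14, adjusted p = 0.539). In E2F1 replicate 5 at 24 h lay lowest, at 256 CPM, while the 12 h libraries ran from 789 to 1439 CPM.

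**Figure D3:**
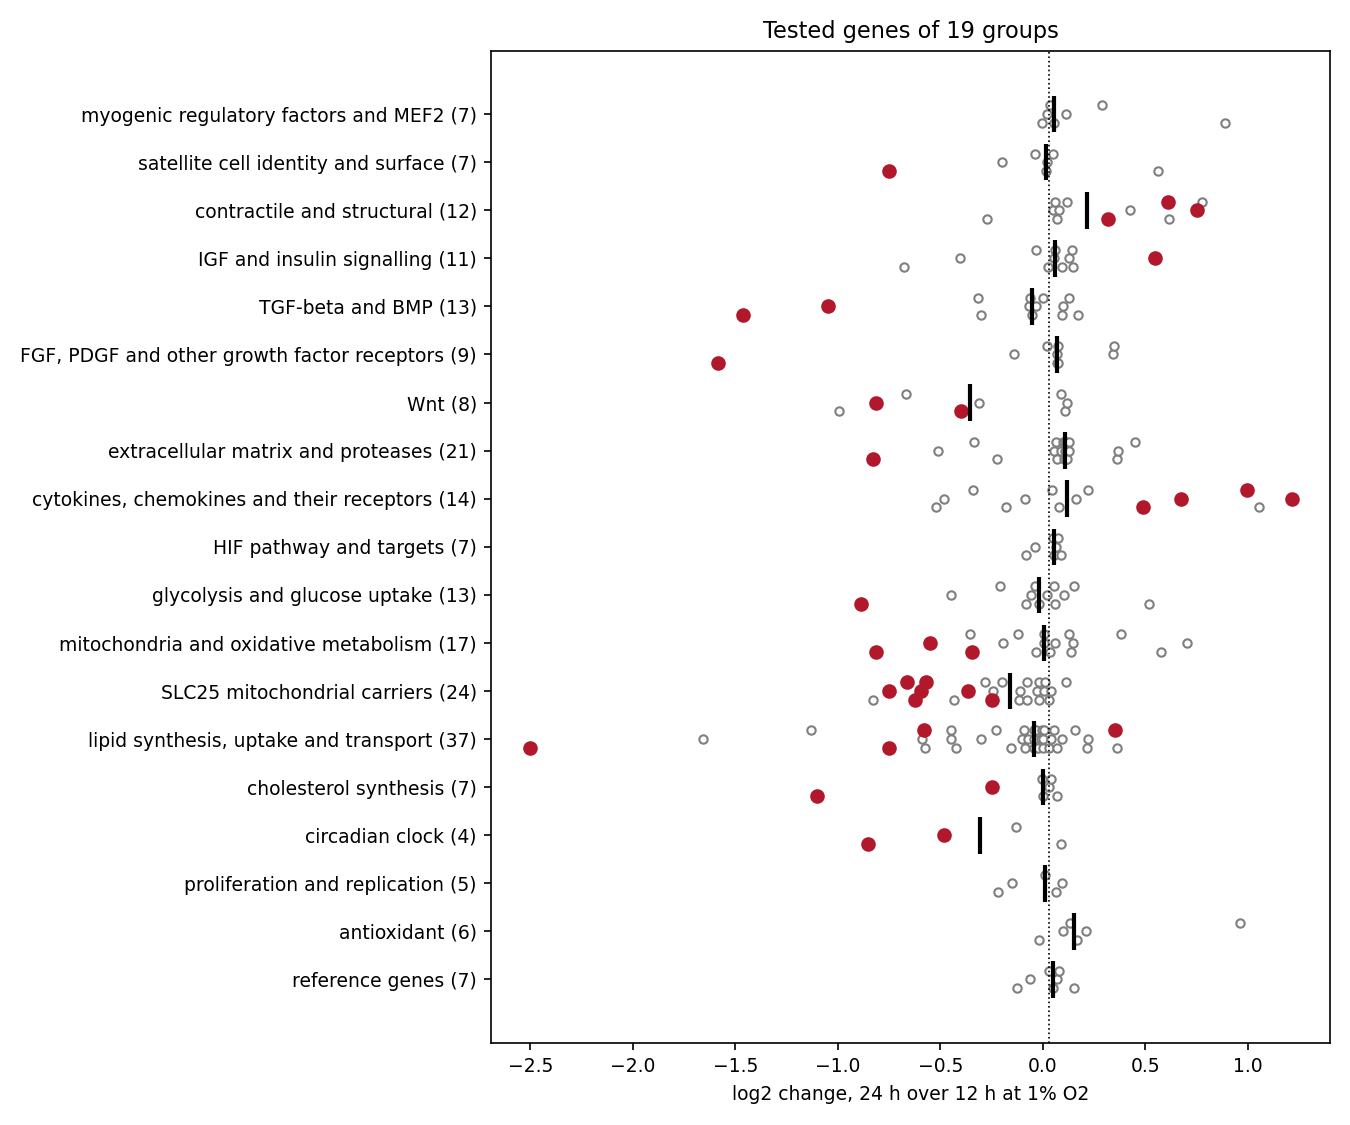
Log2 change (24 h over 12 h at 1% O2) of every tested gene in 19 groups, 1 point per gene, with the number tested in brackets. Red points passed the test, grey ones did not, black bars are group medians and the dotted line is the median of all tested genes (0.03). The bars of the Wnt (-0.36) and circadian clock (-0.31) groups lie farthest to the left and that of the contractile group (0.22) farthest to the right. The clock, cholesterol and SLC25 groups were drawn up after the values had been seen, so the place of their bars is partly built into the choice.

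Further falls were seen in DIO2 and ESR1, which belong to no list. DIO2, the deiodinase that makes active thyroid hormone inside the cell, had 57.8, 73.5 and 132 CPM at 24 h, against 153, 223 and 262 CPM at 12 h, without overlap, and fell 2.65-fold (log2 change -1.41, SE 0.26, adjusted p = 0.00011). The oestrogen receptor ESR1 had 438, 544 and 578 CPM at 24 h, against 698, 856 and 915 CPM at 12 h, also without overlap (log2 change -0.65, SE 0.14, adjusted p = 0.00115). Neither call was lost in any fit that left out a single library. With technical replicate 2 alone the ESR1 call was lost and the DIO2 call was kept.

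Of 4 tested clock genes, a list drawn up after the values had been seen, 2 passed, both lower (50.0%, against 10.2% called and 7.73% called lower over all tested genes). PER3, a repressor of the clock, had 891, 1224 and 1769 CPM at 24 h, against 1571, 2297 and 2730 CPM at 12 h (log2 change -0.85, SE 0.17, adjusted p = 0.000332). NR1D2, a nuclear receptor of the clock's second loop, had 1154, 1374 and 1974 CPM at 24 h, against 1516, 2089 and 2308 CPM at 12 h (log2 change -0.48, SE 0.14, adjusted p = 0.0205). In both the overlap came from replicate 1, and the NR1D2 call was lost without replicate 5 at 12 h and replicate 2 or 6 at 24 h (adjusted p up to 0.0657). With all libraries the log2 changes in normoxia were -0.31 for PER3 (adjusted p = 0.123) and -0.18 for NR1D2 (adjusted p = 0.285). The difference between the oxygen levels did not pass for PER3 (-0.54, adjusted p = 0.15) or NR1D2 (-0.31, adjusted p = 0.297). The hour of day at harvest is not in the labels, so it and the hours of differentiation cannot be told apart.

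Among regulators, EGR3, an immediate early factor, and NAB1, a corepressor of EGR proteins, both fell. EGR3 had 848, 1040 and 1211 CPM at 24 h, against 1059, 1484 and 1639 CPM at 12 h (log2 change -0.46, SE 0.15, adjusted p = 0.0485), a call lost without any library but replicate 1 at either time and replicate 3 at 24 h (up to 0.136). NAB1 had 2473, 2786 and 3538 CPM at 24 h, against 3115, 3756 and 3972 CPM at 12 h (log2 change -0.35, SE 0.10, adjusted p = 0.0192), a call lost without replicate 5 at 12 h and replicate 2 or 6 at 24 h (up to 0.0708). EGR3 was the only 1 of 8 tested immediate early and MAPK feedback genes to pass, as were SESN1 of 7 tested autophagy and stress genes and ACE of 8 tested vasoactive genes, both described next. These shares are 12.5%, 14.3% and 12.5%, against 10.2% over all tested genes.

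SESN1, a stress-induced protein that restrains mTOR signalling, had 1183, 1388 and 1619 CPM at 24 h, against 1622, 1705 and 1952 CPM at 12 h, without overlap, the highest 24 h library lying just under the lowest at 12 h (log2 change -0.31, SE 0.10, adjusted p = 0.0323). The call was lost without replicate 5 or 6 at 12 h and replicate 2, 4 or 6 at 24 h (adjusted p up to 0.111). ACE, the angiotensin-converting enzyme, had 163, 300 and 726 CPM at 24 h, against 424, 630 and 744 CPM at 12 h (log2 change -0.83, SE 0.28, adjusted p = 0.0493). Replicate 1 at 24 h lay within the 12 h range of ACE, and the call was lost without any library but replicate 1 at either time (up to 0.136).

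A further 3 genes that fell also belong to no list. FTO, an RNA demethylase, had 667, 924 and 1265 CPM at 24 h, against 884, 1505 and 1777 CPM at 12 h (log2 change -0.67, SE 0.22, adjusted p = 0.0389), a call lost without any library but replicates 1 and 4 at 12 h and replicate 1 at 24 h (up to 0.115). ZDHHC14, a palmitoyltransferase, had 1 to 16 raw counts at 24 h and 2 to 41 at 12 h (log2 change -1.13, SE 0.33, adjusted p = 0.0236), a call lost without replicate 2 or 5 at 12 h and replicate 2 or 3 at 24 h (up to 0.0712). The transcription factor SOX13 had 8 to 23 raw counts at 24 h and 16 to 67 at 12 h (log2 change -1.10, SE 0.36, adjusted p = 0.0389), a call lost without replicate 3, 4 or 6 at 12 h and replicate 1, 3, 4 or 5 at 24 h (up to 0.16).

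The gene ENSGALG00000019761, which has no symbol in the tables used, rose 1.40-fold (log2 change 0.49, SE 0.16, adjusted p = 0.0485). Its levels were 828, 1027 and 1695 CPM at 24 h, against 649, 804 and 971 CPM at 12 h. The adjusted p was 0.0535 without the libraries that stand apart, and up to 0.202 without replicate 2, 3, 5 or 6 at 12 h or replicate 2 or 3 at 24 h.

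Besides the myogenic factors, the HIF and proliferation genes and the markers of other cell types described above, no gene passed in the lists of Notch (0 of 3), antioxidants (0 of 6), apoptosis (0 of 5), sirtuins (0 of 7), fusion (0 of 1), cell cycle inhibition (0 of 1) and the reference genes (0 of 7), in edgeR at an adjusted p under 0.05. Over all tested genes the share that passed was 10.2%. In the reference list GAPDH had the largest log2 change, 0.15 (SE 0.11, adjusted p = 0.408). In the apoptosis list the death receptor FAS had 1052, 1205 and 1441 CPM at 24 h, against 948, 1031 and 1111 CPM at 12 h (log2 change 0.26, SE 0.09, adjusted p = 0.0708). In the antioxidant list GPX4, which repairs oxidised lipids, had 5 to 50 raw counts at 24 h and 4 to 29 at 12 h (log2 change 0.96, SE 0.46, adjusted p = 0.205).

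The same 12 h of differentiation in normoxia asked which of these changes belong to the hour and which differ with oxygen. In normoxia 175 of 453 genes passed (38.6%), 84 higher and 91 lower at 24 h. The libraries that stand apart are 1 of 6 at 24 h and 4 of 6 at 12 h there, and without them 39 genes passed, 5 higher and 34 lower. Leaving them out kept only replicates 4 and 5 at 12 h in normoxia. How far calls were lost through fewer libraries was not tested. In DESeq2 the normoxia split was 58 up and 104 down, and with the reference genes it was 12 up and 116 down, a scaling that moved the median of all genes in normoxia to -0.21, against 0.002 in the main scaling. Normoxia directions are therefore given relative to the main scaling.

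Genes called at both oxygen levels numbered 20, which is 43.5% of the hypoxia calls and 11.4% of the normoxia calls. Over all tested genes 38.6% were called in normoxia and 10.2% in hypoxia, so both shares lay near those over all genes. Without the libraries that stand apart 15 genes were called at both. That is 23.8% of the 63 hypoxia calls and 38.5% of the 39 normoxia calls made then. For that fit the shares over all tested genes are not given. Of the 20 genes called at both with all libraries, 18 went the same way, 6 higher and 12 lower, and IL6 and SESN1 went opposite ways. The normoxia change of SESN1 (log2 change 0.24, adjusted p = 0.0456) was -0.056 without the libraries that stand apart (adjusted p = 0.747). In hypoxia and normoxia the log2 changes were 1.21 and 0.99 for PTGDS, 0.68 and 0.87 for EXFABP, 0.61 and 0.44 for LDB3 and 0.32 and 0.23 for MYH1D. Among genes that fell they were -1.46 and -0.74 for BMP7, -1.41 and -0.97 for DIO2, -1.10 and -0.75 for DHCR7 and -0.82 and -0.73 for WNT5B. For these 8 genes the difference between the oxygen levels did not pass its test, the smallest adjusted p being 0.101 for BMP7 (difference -0.72, SE 0.27).

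The change itself differed between hypoxia and normoxia in 21 of 453 genes (4.64%), with 14 differences positive and 7 negative. Without the libraries that stand apart 6 genes passed, and of the 21 these were SPON2, FST, IL6, CCL5 and ENSGALG00000027887, while all 21 kept their sign. That fit held only replicates 4 and 5 at 12 h in normoxia. Scaling to the reference genes left 4 genes, and DESeq2 called 39, 32 positive and 7 negative. FGFR3, FBP1, IL6, SESN1 and ZDHHC14 also passed within hypoxia.

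**Figure D4:**
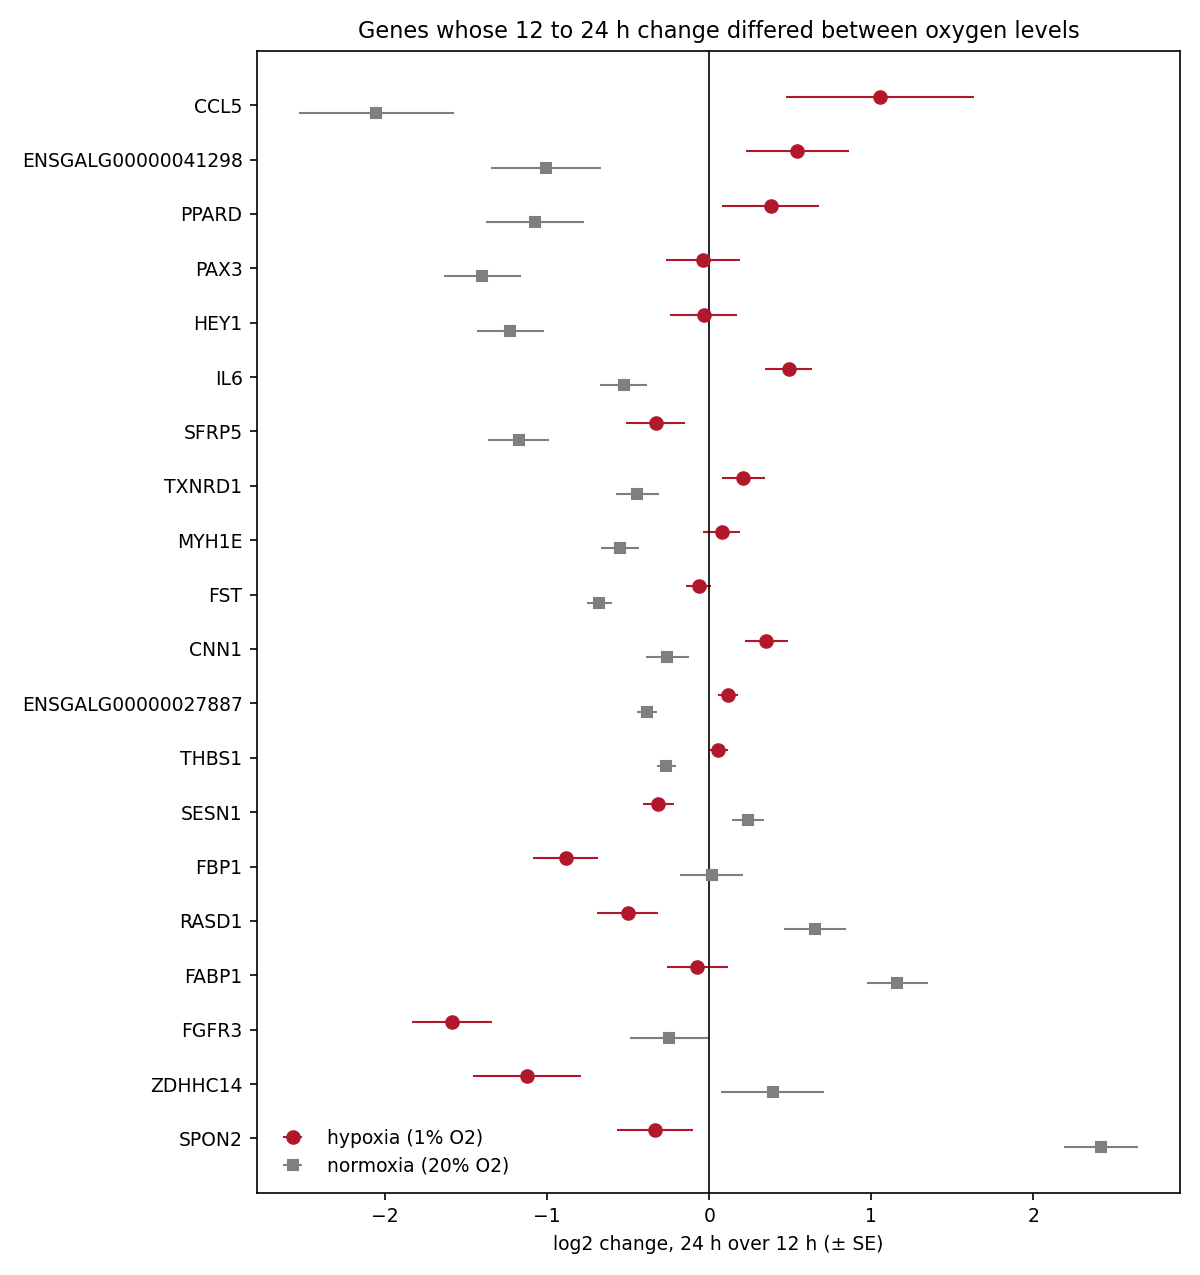
Log2 change from 12 to 24 h with its SE in hypoxia (red circles, upper) and normoxia (grey squares, lower) for 20 of the 21 genes whose change differed between the oxygen levels, ordered by the difference. SPON2 at the bottom has -0.34 in hypoxia and 2.42 in normoxia, and CCL5 at the top has 1.05 in hypoxia and -2.05 in normoxia.

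SPON2, a secreted matrix protein, averaged 21.8 ± 5.71 CPM at 24 h and 27.0 ± 11.0 CPM at 12 h in hypoxia, and 104 ± 32.2 CPM at 24 h and 19.5 ± 4.76 CPM at 12 h in normoxia (SD, n = 6 each). It rose in normoxia and did not pass in hypoxia (difference -2.75, SE 0.32, adjusted p = 1.56e-08, or 0.00657 without the libraries that stand apart). FABP1, a fatty acid binding protein, averaged 98.5 ± 8.64 CPM at 24 h and 104 ± 26.4 CPM at 12 h in hypoxia, and 322 ± 67.1 CPM at 24 h and 144 ± 30.9 CPM at 12 h in normoxia (difference -1.23, SE 0.27, adjusted p = 0.00235, or 0.291 without those libraries). In both genes the 24 h level in normoxia is the one that lies apart from the other 3 means.

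FST averaged 5917 ± 694 CPM at 24 h and 6187 ± 394 CPM at 12 h in hypoxia, and 3186 ± 413 CPM at 24 h and 5085 ± 350 CPM at 12 h in normoxia (SD, n = 6 each). Follistatin fell in normoxia and did not pass in hypoxia (difference 0.61, SE 0.11, adjusted p = 0.000236, or 0.00777 without the libraries that stand apart). IL6 averaged 3027 ± 568 CPM at 24 h and 2158 ± 323 CPM at 12 h in hypoxia, and 998 ± 163 CPM at 24 h and 1429 ± 321 CPM at 12 h in normoxia. It rose in hypoxia and fell in normoxia (difference 1.02, SE 0.21, adjusted p = 0.000991, or 0.00476 without those libraries).

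PAX3 and HEY1, a target of Notch, fell in normoxia (log2 changes -1.40 and -1.23) and did not pass in hypoxia (-0.04 and -0.04), with differences of 1.36 (SE 0.33) and 1.19 (SE 0.29), each with an adjusted p of 0.00757. Without the libraries that stand apart the adjusted p-values were 0.0786 and 0.107. MYH1E fell in normoxia, to 1232 ± 230 CPM at 24 h, against 1805 ± 264 CPM at 12 h, and averaged 2949 ± 221 CPM at 24 h and 2797 ± 232 CPM at 12 h in hypoxia (difference 0.63, SE 0.16, adjusted p = 0.0142, or 0.0786 without those libraries). The 3 genes share the same form, a fall in normoxia set against a level in hypoxia that did not pass.

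FGFR3 is of the other kind. In hypoxia it averaged 370 ± 81.6 CPM at 24 h and 1117 ± 230 CPM at 12 h, and in normoxia 449 ± 176 CPM at 24 h and 533 ± 242 CPM at 12 h (difference -1.34, SE 0.35, adjusted p = 0.0119, or 0.294 without the libraries that stand apart). The 24 h means of the 2 oxygen levels were close, and it was the 12 h mean that was higher in hypoxia. The 12 h mean in normoxia rests mostly on libraries that stand apart, at 299 to 563 CPM. Replicates 4 and 5, which do not, had 522 and 975 CPM. For FBP1 the averages were 227 ± 72.6 CPM at 24 h and 422 ± 47.2 CPM at 12 h in hypoxia, and 530 ± 112 CPM at 24 h and 523 ± 206 CPM at 12 h in normoxia (difference -0.90, SE 0.28, adjusted p = 0.0473, or 0.425 without those libraries). There it was the 24 h level in hypoxia that stood low. The FBP1 difference was not called without replicate 2, 3, 5 or 6 at 12 h or replicate 2, 4, 5 or 6 at 24 h in hypoxia, nor without replicate 1, 2, 4 or 6 at 12 h or replicate 1, 4, 5 or 6 at 24 h in normoxia (adjusted p up to 0.0939).

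The wider course sets the interval in place. The plotted levels at 0, 12, 24, 36 and 48 h show genes that fell from 12 to 24 h and stayed low and genes that came back. The means include libraries that stand apart, among them replicate 1 at 0 h. In hypoxia these were 1 of 6 libraries at 12, 24 and 36 h each, and 2 of 6 at 48 h. In normoxia they were 4 of 6 at 12 h, 1 of 6 at 24 and 36 h each, and 5 of 6 at 48 h. The course was not redrawn without them. BMP7 averaged 1649 ± 171, 1727 ± 333, 624 ± 156, 665 ± 189 and 678 ± 118 CPM at 0, 12, 24, 36 and 48 h in hypoxia (SD, n = 5 at 0 h and 6 after). PER3 averaged 1521 ± 271, 2245 ± 393, 1238 ± 320, 1552 ± 296 and 2844 ± 632 CPM. The BMP7 means at 24, 36 and 48 h lay close together, while PER3 was lowest at 24 h and highest at 48 h.

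Of the 35 genes that fell, 13 had a 48 h mean above every 24 h library, and 8 were back at or above their 12 h mean: CD36, ESR1, FTO, MGLL, NR1D2, PER3, SESN1 and SLC25A22. CD36 and SESN1 had passed their 12 h mean by 36 h, with 1920 ± 359 and 2452 ± 217 CPM. These genes were picked as low at 24 h, so part of any return is built into the choice, and no test was made of it. Of the 11 genes that rose, IL6 and COX3 were at or below their 12 h mean by 48 h, and IL6 had reached 1342 ± 330 CPM at 36 h. PTGDS, EXFABP and LDB3 averaged 1960 ± 248, 3219 ± 170 and 3438 ± 302 CPM at 48 h, above their 24 h means of 1503 ± 283, 2330 ± 205 and 2483 ± 483 CPM.

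**Figure D5:**
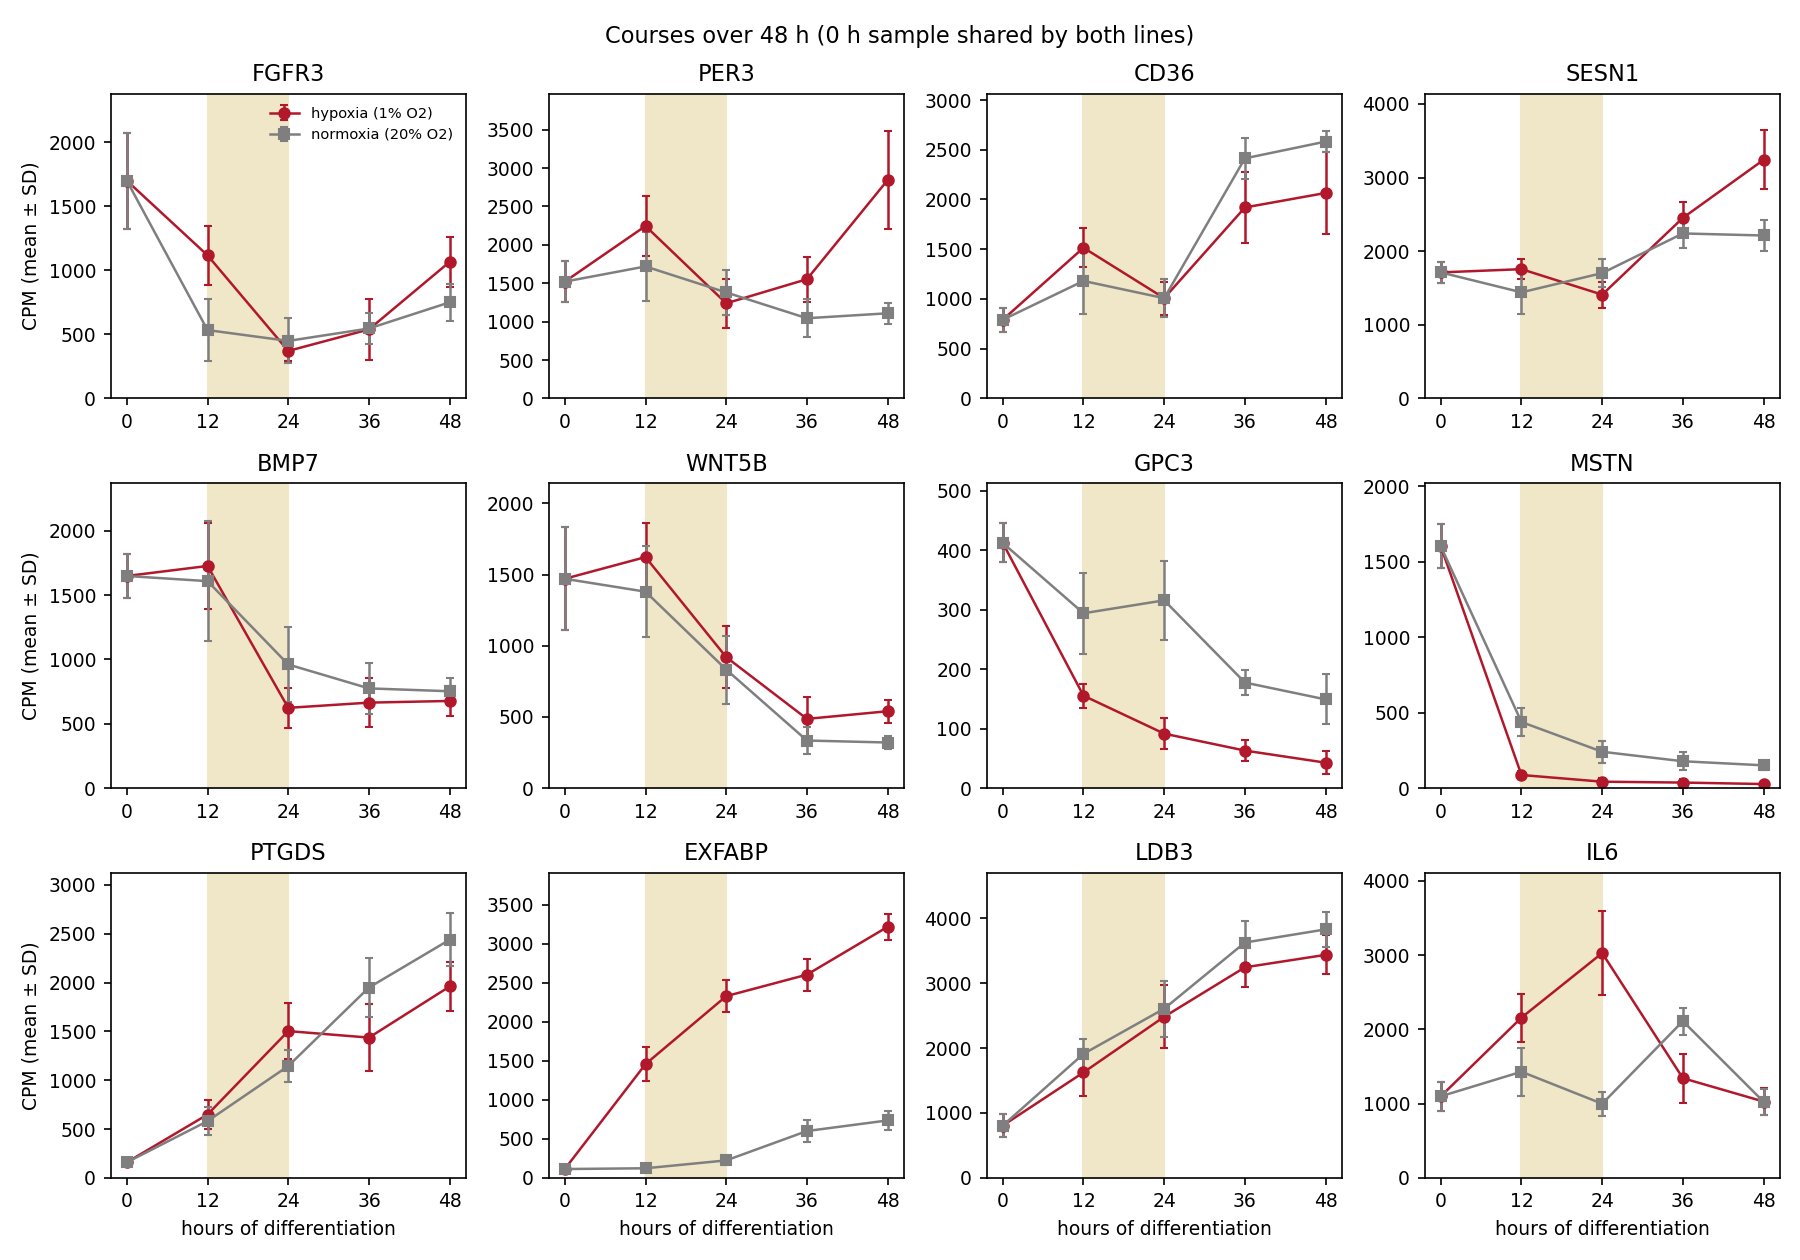
CPM (mean ± SD) of 12 genes over 48 h in hypoxia (red circles) and normoxia (grey squares), which share the 0 h samples (n = 5, other points n = 6), with the 12 to 24 h interval shaded. FGFR3, PER3, CD36 and SESN1 dip at 24 h in hypoxia and are higher at 48 h, BMP7, WNT5B, GPC3 and MSTN stay low, and PTGDS, EXFABP and LDB3 are highest at 48 h, while IL6 is highest at 24 h. Libraries that stand apart are included, 2 of 6 at 48 h in hypoxia and 5 of 6 at 48 h in normoxia.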

How the data were processed

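The authors deposited raw read counts per transcript and sample, made by targeted RNA-seq with primers whose products span exon boundaries, per the labels' protocols. The submitters' processing notes name galGal6, and the coordinates printed are the authors' own. No aligner or counting tool is named (not given in the sources used here). Deposited were counts of 590 transcripts in 106 samples, which are 53 biological libraries with 2 technical replicates each. Technical replicates were summed, and the 2 transcripts of 21 genes were summed, giving 569 genes. Value columns that matched no sample numbered 0. Blank cells (1160, in 21 columns) were read as 0: none lay in the hypoxia columns at 24 or 12 h, and 524 in 5 columns lay in the normoxia columns used. Of the names, 522 matched a current symbol in a RefSeq gene table of another assembly, used for names alone, and 4 an older symbol; 31 Ensembl-only names had no match and 12 others were kept.

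After TMM scaling, edgeR 4.0.16 (R 4.3.3) fitted all 9 groups together and gave quasi-likelihood F tests (44 residual degrees of freedom, common biological coefficient of variation 26.0%). Genes passed filterByExpr (453) or were not tested (116). Adjusted p-values are Benjamini-Hochberg over the 453 genes, with calls under 0.05, and are edgeR's unless DESeq2 1.42.0 is named. Standard errors were derived from the log2 change and F (their ratio after taking the root of F). The contrasts were 24 h minus 12 h in hypoxia, the same in normoxia, and their difference. The procedure was tested on simulated data, drawn independently for each library with the spread estimated by this fit. The simulation held no libraries that stand apart, so it cannot show how they affect the calls.

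Named genes were the 14 highest and 14 lowest changes among called genes, the 10 smallest p-values of the difference, a set of myogenic, hypoxia, cell cycle and growth factor genes, and in each list the called members and the largest change. The other called genes and the SLC25, cholesterol, clock and sirtuin lists were chosen after their values were seen. Members and lists were chosen with earlier results of these data known. Alternatives were DESeq2, library totals or reference genes as the scale, testing without a filter, technical replicate 1 or 2 by itself, only the groups compared, a replicate block, and leaving out each library; leaving out the libraries that stand apart was chosen after seeing the data. That set was taken above the widest gap in the mean log2 CPM of 6 genes. The labels mention no molecular identifiers, so a read is not an independent molecule. No sequences were analysed here, and a few genes are not reported here, though they stay in all counts over genes.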

Additional observations from a re-analysis of the deposited data

Results flagged for a closer look

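The 12 to 24 h change differed between hypoxia and normoxia by the test of the difference (edgeR, adjusted over all tested genes) in 21 genes. The differences in log2 change, hypoxia minus normoxia, were -2.75 for SPON2, -1.52 for ZDHHC14, -1.34 for FGFR3, -1.23 for FABP1, -1.16 for RASD1, -0.90 for FBP1 and -0.55 for SESN1. Positive differences included 0.32 for THBS1, 0.50 for ENSGALG00000027887, 0.61 for CNN1, 0.61 for FST, 0.63 for MYH1E, 0.65 for TXNRD1, 0.85 for SFRP5, 1.02 for IL6, 1.19 for HEY1, 1.36 for PAX3, 1.46 for PPARD, 1.55 for ENSGALG00000041298 and 3.11 for CCL5. THBS1, TXNRD1, SFRP5, PPARD and ENSGALG00000041298 were named after their values were seen. CCL5 had 1 to 12 raw counts at 24 h and 0 to 5 at 12 h in hypoxia. Without the libraries that stand apart, which are 4 of 6 in normoxia at 12 h, SPON2, IL6, FST, ENSGALG00000027887 and CCL5 still passed. The calls of CNN1, ENSGALG00000041298, FBP1, PPARD, SFRP5, TXNRD1 and ZDHHC14 were lost in at least 9 fits that each left out 1 of the 24 libraries compared, among them, for each of these genes, those without hypoxia replicate 2 at 12 h or 24 h or normoxia replicate 4 at 24 h (adjusted p up to 0.108), and 13 of the 21 genes passed in every such fit.

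A single library lay far from the other 5 in 17 of 178 groups examined by Dixon's criterion (89 genes at 2 times in hypoxia), and 12 of the 17 were replicate 1. Chance flags about 1 in 20 groups. Replicate 1 was high at 24 h in ACE (726 CPM), SLC25A13 (708 CPM), WNT5B (1346 CPM), CD14 (224 CPM) and IRS1 (87.7 CPM). At 12 h it was high in CD14 (265 CPM) and IRS1 (165 CPM) and low in ACADL (136 CPM), NAB1 (3115 CPM), NR1D2 (1516 CPM), RASD1 (852 CPM) and WNT5B (1161 CPM). The others were PVALB (304 CPM) and VWF (274 CPM) in replicate 2 at 24 h, GAPDH (9367 CPM) in replicate 5 at 24 h, NOTCH1 (614 CPM) in replicate 5 at 12 h and APOA1 (933 CPM) in replicate 6 at 12 h.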

How the results depend on the processing

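The number of genes called from 12 to 24 h in hypoxia was 46. It was 29 when scaled to reference genes, 13 with technical replicate 2 alone and 22 with only the groups compared, and ran from 24 to 68 when 1 library was left out. It fell to 26, 25 or 27 without replicate 3, 5 or 6 at 12 h and to 24 or 29 without replicate 2 or 6 at 24 h; it rose to 68 without replicate 1 at 24 h. In normoxia 175 genes were called, 55 with technical replicate 2 alone, 39 without the libraries that stand apart and 106 to 188 leaving out 1 library, the lowest without replicate 4 at 24 h (109 without replicate 1). The difference was called in 21 genes, in 39 by DESeq2, 4 with reference genes, 11 and 5 with technical replicate 1 or 2 alone, 6 without the libraries that stand apart, and 13 to 49 leaving out 1 library. The normoxia change of SESN1 was 0.24 and reversed to -0.056 without the libraries that stand apart. The labels link samples of different groups by replicate number alone: same-number deviations in hypoxia correlated from -0.45 to 0.67, and 2 of 6 matched their own number best. The value of 0.67 was that of replicate 1, which stood apart in every group but normoxia at 24 h. The main fit did not model such a link between libraries. With the replicate block 39 genes were called in hypoxia, 187 in normoxia and 32 for the difference. Low-count genes (ELOVL3, COX3, ZDHHC14, SOX13, MSTN) are limited by depth. Fewer reads or samples entered where a technical replicate or library was left out. Of the 46 hypoxia calls, 36 were kept with technical replicate 1 alone and 13 with technical replicate 2 alone, and both used only part of the reads. Over the 12 hypoxia libraries, total counts were similar, 100061 to 678666 in technical replicate 1 and 104210 to 699937 in technical replicate 2. Calls lost with technical replicate 2 alone included those of CD36, ELOVL3, ESR1, FBP1, PER3, SLC25A26, SLC25A32, WNT5A and WNT5B. The cause of these shifts was not tested.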
